A study of Ursus arctos with 12 samples.

Results

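The genes described here code for the enzymes and carriers of the tricarboxylic acid (TCA) cycle, of the entry of pyruvate into mitochondria, and of the shuttles that pass the electrons of cytosolic NADH to the respiratory chain. They were taken by gene symbol from a list of 36, and a gene was kept when it had at least 30 reads summed over the 12 libraries. This left 34 genes of the 17290 that passed the same limit in the whole count table of 30249 lines. FH, which codes for fumarase, was not analysed here. OGDHL, which codes for a form of 2-oxoglutarate dehydrogenase known from brain, had 22 reads in all, 18 of them in the winter library of bear 1509, and was not tested.

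The libraries were made from biopsies of the vastus lateralis, a thigh muscle, of 6 free-ranging brown bears (Ursus arctos) aged 2 to 3 years. Each bear was biopsied in winter, during hibernation, and again in summer, during its active period, so that 6 winter and 6 summer libraries were compared within animals. The poly-A RNA was sequenced with strand information, and between 16742406 and 32140160 reads per library were counted on genes. Hibernating bears neither eat nor move about for months, so the 2 seasons differ in feeding, activity and time of year together. A biopsy holds every cell type of the tissue, and fewer cells of a type and less RNA per cell cannot be told apart. The winter library of bear 1509 stood apart on the second principal component of all genes, at −98.6 against 6.35 to 23.1 for the other winter libraries.

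In the TCA cycle, acetyl groups from carbohydrate, fat and amino acids are oxidised in the mitochondrial matrix, and the electrons are handed to NAD and FAD. Pyruvate reaches the cycle through the mitochondrial pyruvate carrier and the pyruvate dehydrogenase complex, or is carboxylated to oxaloacetate. NADH cannot cross the inner mitochondrial membrane, and muscle uses the malate-aspartate and the glycerol phosphate shuttles to move its electrons inward.

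Most genes of the list were lower in the hibernating muscle. Of the 34 genes, 24 were called lower and 1 higher in winter at the 5% limit (adjusted p below 0.05), and 9 were not called. The test was edgeR's quasi-likelihood test with the bear as a block and Benjamini-Hochberg adjustment over all genes. Log2 fold changes from this fit (log2FC, winter over summer) are given ± a standard error, which was derived from the log2FC and the F statistic of the test. Levels are CPM, counts per 1000000 reads after scaling for library composition. Among all genes tested, 21.2% were called lower and 19.6% higher. Without the block the counts were again 24 and 1, where 19.9% of all genes were lower and 19.6% higher. With stricter limits, namely a fold change (FC) outside 0.77 to 1.3 and a p under 0.01 after adjustment, 21 were lower and 1 was higher, where 13.4% and 12.2% of all genes passed. The median log2FC of the 34 genes was −0.67, an FC of 0.627, against −0.01 for all genes tested.

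These genes together took 1.25 to 1.66% of the reads of a summer library and 0.634 to 1.09% of those of a winter library, so the seasons did not overlap. Level by level, 22 of the 34 genes were lower in winter in 6 of 6 bears, which held for 19.0% of all genes, and GPD2 was higher in 6 of 6, as were 18.4%. For 15 of the 34 the highest winter library lay below the lowest summer library, as it did for 8.21% of all genes. In the plot of the change of each gene, the bears lie left of 0 in most lines. In GPD2, ME1 and SLC25A13 most bears lie right of 0. Bear 1511 lies right of 0 in 11 genes, against 3 to 6 genes in the other bears.

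**Figure D1:**
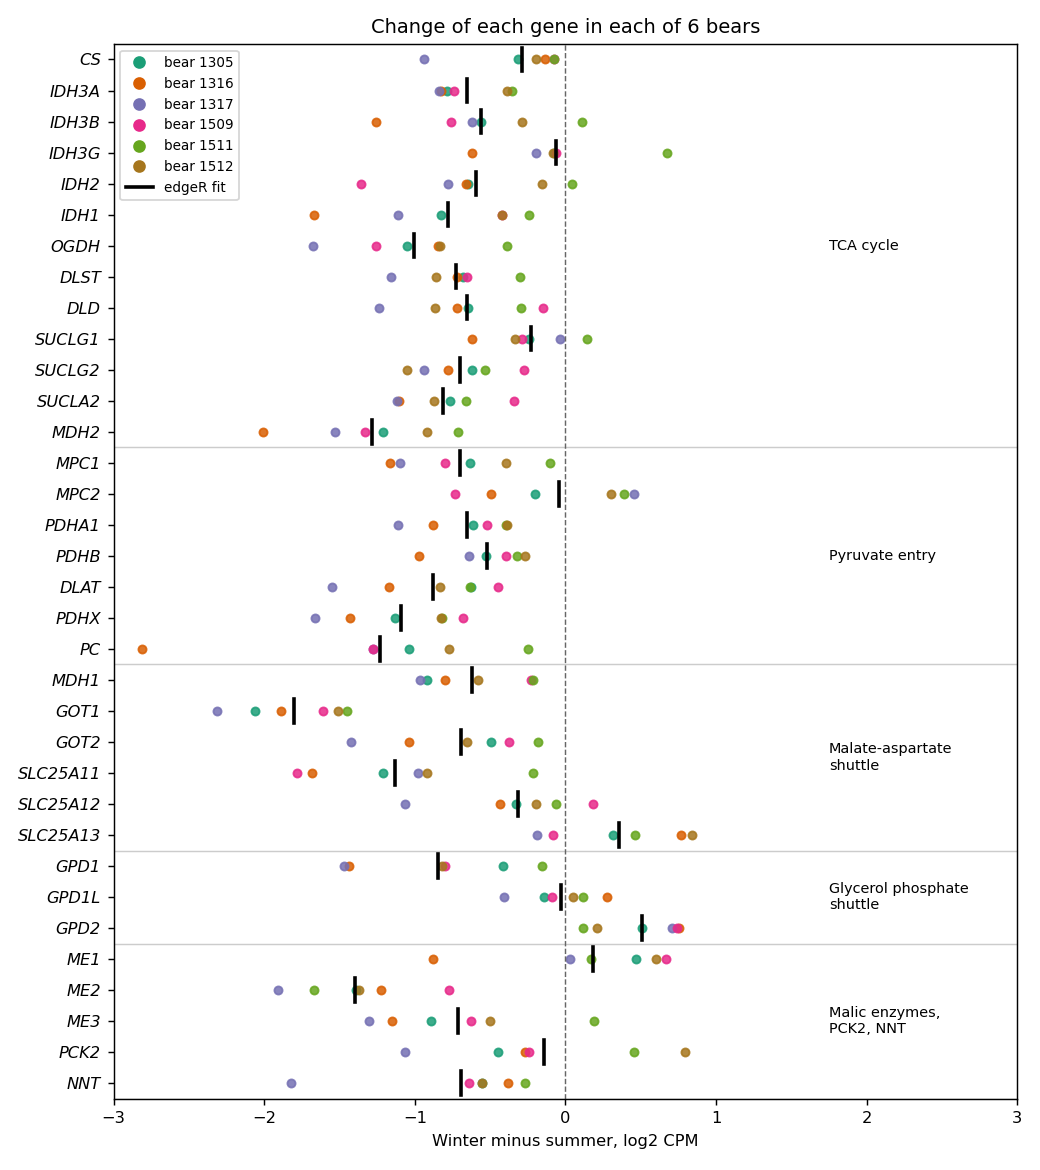
Winter minus summer change of the 34 genes on the log2 scale of CPM, with 1 point per bear and a black bar for the log2FC fitted by edgeR; genes are ordered by role. The bar of GOT1 lies furthest to the left, with bears between −2.31 and −1.45, while the point furthest left is bear 1316 in PC, at −2.81. GPD2 is the gene whose 6 bears all lie right of 0, at 0.12 to 0.76.

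Some markers of the cell types in the biopsy also differed between seasons, and their part in the values below was not tested. For comparison, 21.2% of all genes tested were called lower and 19.6% higher. The summed levels of the fibroblast and the endothelial markers did not overlap between seasons, while those of the other lists did. The defining genes of skeletal muscle summed to 103831 to 180972 CPM in summer and 114838 to 149291 CPM in winter, with 1 of 7 higher (TTN) and 2 lower (ACTA1 and MB). Of the slow fibre markers 1 of 8 was higher and 2 were lower, and of the fast fibre markers 2 of 7 tested were lower. MYH2 and MYH4 were not analysed here, and of the markers analysed none was at 0 in all 12 libraries. Fibroblast markers were lower for 6 of 7 genes, and their sum was 4213 to 11323 CPM in summer against 274 to 1649 CPM in winter. Endothelial markers were lower for 5 of 7 genes and higher for 1, with sums of 617 to 945 CPM in summer and 411 to 481 CPM in winter. Macrophage markers were lower for 4 of 6 genes, at 55.5 to 107 CPM against 37.3 to 67.8 CPM. Adipocyte markers were lower for 2 of 7 tested, at 311 to 1444 CPM in summer and 222 to 483 CPM in winter. Erythroid markers stayed at or below 5.04 CPM in sum in both seasons, with 1 of 3 tested lower. Schwann cell markers, of which 1 of 5 was lower, reached 117 CPM in the winter library of bear 1509 against 6.19 to 43.3 CPM in the other 11 libraries; the former is also the library with most reads of OGDHL.

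Within the cycle itself, 10 of the 13 genes tested were lower in winter and 3 were not called, where 21.2% of all genes were lower. Citrate synthase, the entry enzyme of the cycle, belonged to the latter. CS lay at 1194 to 1828 CPM in summer (median 1319) and at 953 to 1399.5 CPM in winter (median 1118), and the seasons overlapped although each bear was lower in winter. Its log2FC was −0.29 ± 0.14 (adjusted p = 0.130), and in bear 1317 it was −0.94. Without the winter library of bear 1509 and without the block, CS was called lower, at −0.36 (adjusted p = 0.0420), while without bear 1317 it was at −0.16 (adjusted p = 0.277).

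The isocitrate dehydrogenases oxidise isocitrate, the NAD-linked enzyme being an assembly of IDH3A, IDH3B and IDH3G. IDH3A, the catalytic subunit, lay at 419 to 495 CPM in summer (median 464) and 234 to 383 CPM in winter (median 283), without overlap. Its log2FC was −0.66 ± 0.12 (adjusted p = 0.00136), with bears from −0.84 to −0.36. IDH3B was lower at −0.56 (adjusted p = 0.0163) in 5 of 6 bears, a call that was lost without the winter library of bear 1509 and the block (−0.50, adjusted p = 0.0659). IDH3G, a regulatory subunit, was not called at −0.06 ± 0.15 (adjusted p = 0.767). Its winter level was 291 CPM in bear 1511 against 143 to 183 CPM in the other bears. The NADP-linked enzymes were both lower, mitochondrial IDH2 at −0.59 (adjusted p = 0.0170, 5 of 6 bears) and cytosolic IDH1 at −0.78 (adjusted p = 0.00637, 6 of 6 bears). IDH1 was the scarcer by reads, with 160 to 509 per library.

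The 2-oxoglutarate dehydrogenase complex, which makes succinyl-CoA, was lower in each of the 3 genes tested. OGDH, its first enzyme, lay at 297 to 452 CPM in summer (median 349) and 139 to 258 CPM in winter (median 179.7), an FC of 0.497 (log2FC −1.01 ± 0.16, adjusted p = 0.00066). DLST, the succinyltransferase core, lay at 346 to 427 CPM in summer (median 378) and 186 to 301 CPM in winter (median 233), a log2FC of −0.73 ± 0.12 (adjusted p = 0.00112). DLD, the dihydrolipoamide dehydrogenase shared with the pyruvate complex, lay at 532 to 809 CPM in summer (median 576) and 254 to 516 CPM in winter (median 399.9), a log2FC of −0.65 ± 0.15 (adjusted p = 0.00566). In none of these 3 genes did a winter library reach the lowest summer library.

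Succinyl-CoA synthetase conserves the energy of succinyl-CoA as ATP or GTP, with SUCLG1 as the common subunit and SUCLA2 or SUCLG2 as its nucleotide-specific partner. SUCLA2, the partner for ADP, lay at 946 to 1229 CPM in summer (median 997) and 435 to 777 CPM in winter (median 624), a log2FC of −0.81 ± 0.13 (adjusted p = 0.000911). SUCLG2, the partner for GDP, lay at 103 to 149.7 CPM in summer and 63.97 to 104 CPM in winter, a log2FC of −0.70 ± 0.12 (adjusted p = 0.00109), where the highest winter library just passed the lowest summer library. SUCLG1 was not called, at −0.23 ± 0.12 (adjusted p = 0.161), with 5 of 6 bears lower. It was at 561 CPM in the winter library of bear 1511 and at 369 to 413 CPM in the other winter libraries.

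Malate dehydrogenase of the matrix, MDH2, closes the cycle and is also a step of the malate-aspartate shuttle. In summer it was at 566 CPM in bear 1305, 856 in bear 1316, 611 in bear 1317, 641 in bear 1509, 645 in bear 1511 and 477 in bear 1512. In winter it was at 245, 213, 212, 255, 393 and 253 CPM in the same order of bears. The seasons did not overlap, and the winter library of bear 1511 was the highest of its season. The FC was 0.411 (log2FC −1.28 ± 0.16, adjusted p = 0.000217), with bears from −2.01 to −0.71.

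Pyruvate entry was lower in 6 of 7 genes, where 21.2% of all genes were lower, and MPC2 was not called. The pyruvate carrier is a pair of MPC1 and MPC2. MPC1 lay at 203 to 295 CPM in summer (median 240.3) and 95.1 to 199.6 CPM in winter (median 164), a log2FC of −0.70 ± 0.15 (adjusted p = 0.00371). MPC2 lay at 89.1 to 148 CPM in summer and 89.1 to 138 CPM in winter, with 3 of 6 bears lower and a log2FC of −0.05 ± 0.17 (adjusted p = 0.850).

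Pyruvate dehydrogenase, which commits pyruvate to acetyl-CoA, was lower in each of the subunits tested. PDHA1 and PDHB form its decarboxylase. PDHA1 lay at 605 to 828 CPM in summer (median 791) and 279 to 632 CPM in winter (median 544), with an overlap and a log2FC of −0.65 ± 0.13 (adjusted p = 0.00273). PDHB lay at 304 to 388 CPM in summer (median 342) and 195 to 311 CPM in winter (median 232), again with an overlap, at −0.52 ± 0.12 (adjusted p = 0.00597). DLAT is the acetyltransferase core of the complex. It lay at 288 to 383 CPM in summer (median 296) and 128 to 218 CPM in winter (median 189), at −0.88 ± 0.15 (adjusted p = 0.00116). PDHX, which anchors DLD to that core, lay at 181 to 245 CPM in summer (median 202) and 65.3 to 138 CPM in winter (median 103), at −1.09 ± 0.14 (adjusted p = 0.000243). DLAT and PDHX did not overlap between seasons. Counted after the values were seen, 7 of the 7 genes of the pyruvate and 2-oxoglutarate dehydrogenase complexes were lower in 6 of 6 bears, with log2FCs from −1.09 to −0.52. The same held for 22 of the 34 genes of the list and for 19.0% of all genes tested.

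Pyruvate carboxylase, PC, refills the cycle with oxaloacetate and is abundant in fat and liver. Its summer level was 38.9 CPM in bear 1305, 162 in bear 1316, 46.7 in bear 1317, 40.7 in bear 1509, 34.7 in bear 1511 and 30.1 in bear 1512. The winter levels were 18.9, 23.0, 19.3, 16.7, 29.2 and 17.6 CPM in the same order. The summer library of bear 1316 stood far above the others, and it was also the library with the most adipocyte marker RNA, 1444 CPM against 222 to 538 CPM in the other 11. The log2FC was −1.23 ± 0.26 (adjusted p = 0.00404) over 6 bears and −0.92 (adjusted p = 0.00251) without bear 1316, so the call was also made without that bear.

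The malate-aspartate shuttle was lower in 4 of 6 genes, where 21.2% of all genes were lower, and its 2 aspartate-glutamate carriers were not called. GOT1, the cytosolic aspartate aminotransferase, changed most of the list. Its summer levels were 543 CPM in bear 1305, 581 in bear 1316, 631 in bear 1317, 631 in bear 1509, 604 in bear 1511 and 518 in bear 1512. The winter levels were 130.1, 157, 127, 206, 221 and 182 CPM. No winter library came near the summer range, and the FC was 0.286 (log2FC −1.80 ± 0.14, adjusted p = 1.53e-05).

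GOT2, the mitochondrial partner of GOT1, lay at 908 to 1196 CPM in summer (median 1002) and 445 to 809 CPM in winter (median 661), a log2FC of −0.69 ± 0.17 (adjusted p = 0.00736). MDH1, the cytosolic malate dehydrogenase, lay at 934 to 1327 CPM in summer (median 1081) and 536 to 912 CPM in winter (median 705), a log2FC of −0.62 ± 0.14 (adjusted p = 0.00564). Neither overlapped between seasons. SLC25A11 carries malate in exchange for 2-oxoglutarate. It lay at 99.2 to 166 CPM in summer (median 131) and 43.4 to 120.3 CPM in winter (median 52.8), at −1.13 ± 0.19 (adjusted p = 0.000912). The overlap came from the winter library of bear 1511, since the other winter libraries reached 54.2 CPM at most.

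The aspartate-glutamate carriers drive the shuttle in 1 direction. SLC25A12, the form known from muscle and brain, lay at 506 to 635 CPM in summer and 304 to 576 CPM in winter, with 5 of 6 bears lower and a log2FC of −0.31 ± 0.16 (adjusted p = 0.131). It was called lower without the winter library of bear 1509 and without the block (−0.38, adjusted p = 0.0432), while without bear 1317 it was at −0.17 (adjusted p = 0.318). SLC25A13, the form known from liver, lay at 17.6 to 44.7 CPM in summer and 23.2 to 50.8 CPM in winter, with 4 of 6 bears higher and a log2FC of 0.36 ± 0.15 (adjusted p = 0.0812). It was called higher without bear 1317 (0.46, adjusted p = 0.0355) and without bear 1509 (0.45, adjusted p = 0.0338).

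**Figure D2:**
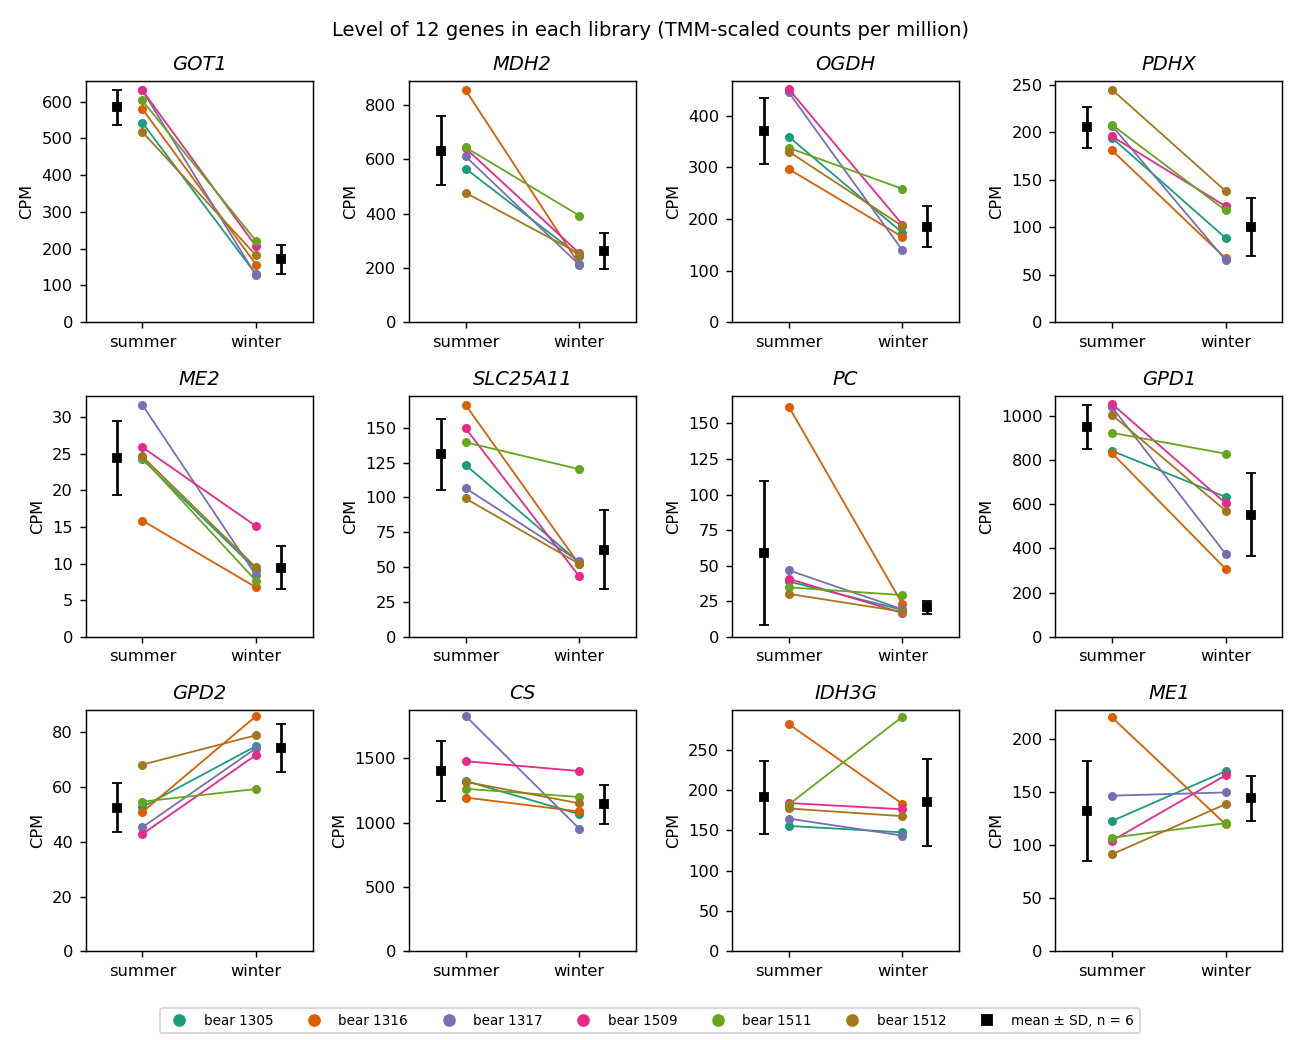
Level in CPM of 12 genes in each library, scaled by edgeR's TMM method, with a line for each bear and black squares for the mean ± SD of 6 bears; the axes start at 0. GOT1 fell from 518 to 631 CPM in summer to 127 to 221 CPM in winter, GPD2 rose in each bear, and PC and ME1 show the summer library of bear 1316 above the others.

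The glycerol phosphate shuttle moved in both directions. GPD1, the cytosolic glycerol-3-phosphate dehydrogenase, lay at 832 to 1055 CPM in summer (median 964) and 307 to 829 CPM in winter (median 588), a log2FC of −0.85 ± 0.18 (adjusted p = 0.00413). The highest winter library, that of bear 1511, lay just under the lowest summer library. GPD1L, its cytosolic relative, lay at 138 to 248 CPM in summer and 161 to 233 CPM in winter and was not called (log2FC −0.03 ± 0.11, adjusted p = 0.843), with 3 of 6 bears lower.

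GPD2, the mitochondrial glycerol-3-phosphate dehydrogenase that passes the electrons to ubiquinone, was the gene of the list that rose. In summer it was at 52.7 CPM in bear 1305, 50.9 in bear 1316, 45.3 in bear 1317, 42.8 in bear 1509, 54.7 in bear 1511 and 68.2 in bear 1512. In winter it was at 74.9, 85.9, 74.2, 71.7, 59.3 and 78.9 CPM. Each bear was higher in winter, while the seasons overlapped through the summer library of bear 1512 and the winter library of bear 1511. The FC was 1.42 (log2FC 0.51 ± 0.12, adjusted p = 0.00619).

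The malic enzymes convert malate to pyruvate, and 2 of the 3 were called lower. ME2, the mitochondrial NAD-linked form, lay at 15.9 to 31.7 CPM in summer (median 24.6) and 6.76 to 15.1 CPM in winter (median 8.79), without overlap. Its FC was 0.381 (log2FC −1.39 ± 0.15, adjusted p = 7.94e-05), the second largest fall of the list, at 127 to 730 reads per library. ME3, the mitochondrial NADP-linked form, was lower at −0.72 ± 0.18 (adjusted p = 0.00849) in 5 of 6 bears, bear 1511 being the exception at 0.19.

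ME1, the cytosolic form that supplies NADPH for fatty acid synthesis, lay at 91.6 to 221 CPM in summer and 119.9 to 170.0 CPM in winter. It was higher in 5 of 6 bears but not called (log2FC 0.18 ± 0.19, adjusted p = 0.455). Its highest summer level was again that of bear 1316, the library rich in adipocyte markers. Without that bear ME1 was called higher, at 0.39 (adjusted p = 0.0377). It was at 0.11 without bear 1305 (adjusted p = 0.719), 0.094 without bear 1509 (adjusted p = 0.719) and 0.099 without bear 1512 (adjusted p = 0.740). The part of fat cells in the values of PC and ME1 was not tested.

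NNT, which makes mitochondrial NADPH from NADH and the proton gradient, lay at 287 to 737 CPM in summer and 208 to 394 CPM in winter and was lower in 6 of 6 bears (log2FC −0.69 ± 0.19, adjusted p = 0.0131). Bear 1317 had the largest change of NNT, at −1.82. PCK2, the mitochondrial phosphoenolpyruvate carboxykinase, was counted at 13 to 51 reads per library and was not called (−0.14 ± 0.28, adjusted p = 0.705) with the largest standard error of the 34 genes.

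Genes of a pair that serve the same step were compared within each bear, since scaling cancels between genes of the same library. Of the 10 pairs planned, OGDHL and OGDH could not be compared, and 9 were tested with a two-sided exact sign-flip permutation test over 6 bears, whose smallest p is 0.03125. The change of MDH2 minus that of MDH1 was −0.67 ± 0.39 on the log2 scale and below 0 in 6 of 6 bears (SD, n = 6 bears, exact p = 0.03125). For the aminotransferases the matrix gene had the smaller change, with GOT2 minus GOT1 at 1.11 ± 0.29 (SD, n = 6 bears, exact p = 0.03125) and bears from 0.85 to 1.57. GPD1L minus GPD1 was 0.82 ± 0.54 (SD, n = 6 bears, exact p = 0.03125) and MPC2 minus MPC1 was 0.65 ± 0.50 (SD, n = 6 bears, exact p = 0.03125), both above 0 in 6 of 6 bears.

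Adjusted over the 9 pairs, these 4 p values were 0.0703, so none passed 0.05 after adjustment. With 4 pairs at the smallest p of the test, an adjusted p below 0.05 was out of reach, whatever the size of their differences. SLC25A13 minus SLC25A12 was 0.67 ± 0.52 and ME3 minus ME1 was −0.89 ± 0.61 (SD, n = 6 bears), each in 5 of 6 bears, with an exact p of 0.0625 and 0.0938 after adjustment. The other 3 pairs differed by less than their spread between bears. SUCLA2 minus SUCLG2 was −0.11 ± 0.17 (exact p = 0.1875), IDH3A minus IDH2 was −0.06 ± 0.35 (exact p = 0.6875) and IDH2 minus IDH1 was 0.19 ± 0.63 (exact p = 0.5), for n = 6 bears each. The plot of the pair differences shows how far the bears spread within a pair.

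**Figure D3:**
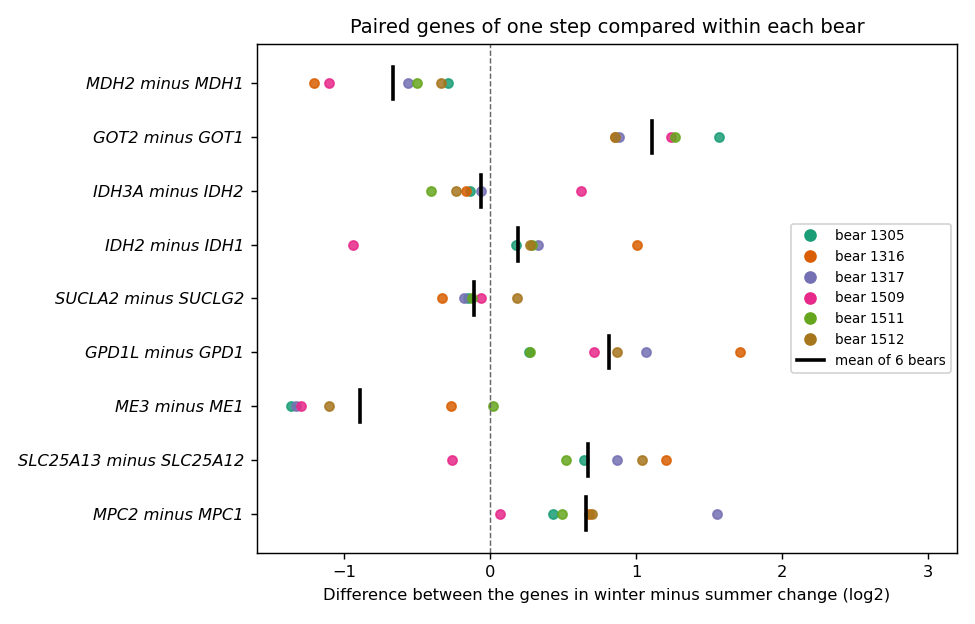
Difference between the genes of a pair in their winter minus summer change, on the log2 scale, with 1 point per bear and a bar at the mean of 6 bears. In 4 pairs the 6 bears lie on 1 side of 0; the widest spread is that of IDH2 minus IDH1, with an SD of 0.63.

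By textbook location, assigned after the values were seen, 4 of 6 cytosolic enzymes were lower, and their median log2FC was −0.70. Of 28 mitochondrial proteins 20 were lower and 1 was higher, with a median of −0.67. The cytosolic genes not called were GPD1L and ME1. The shares of all genes tested were 21.2% lower and 19.6% higher, with a median log2FC of −0.01.

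The bears differed in how far the list moved. The median change was −1.08 in bear 1317, −0.86 in bear 1316, −0.62 in bear 1305, −0.49 in bear 1509, −0.46 in bear 1512 and −0.21 in bear 1511, while the medians of all genes lay between −0.03 and 0.01. In bear 1511, 23 of the 34 genes were lower in winter, against 28 in bear 1512 and 31 in each of the other 4. The winter library of bear 1511 was the highest of its season for 18 of the 34 genes, among them MDH2, SLC25A11, SUCLG1 and IDH3G. Bear 1317 had the lowest change of the 6 bears in 20 of the 34 genes, among them OGDH, PDHX, DLAT, GOT1, GOT2 and NNT. Without bear 1511 the median of the list was −0.73 and without bear 1317 it was −0.56, with 24 genes lower in both cases.

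Neighbouring genes of the pathway that are not on the list were counted in the same fit. Of 32 such genes, 16 were lower and 4 higher in winter, and their median log2FC was −0.46. Over all genes tested, 21.2% were lower and 19.6% higher. Among the remaining cycle enzymes 5 of 6 were lower. SDHC, a membrane anchor of succinate dehydrogenase, was lower at −0.80 ± 0.14 (adjusted p = 0.00115). SDHA, the flavoprotein subunit, was not called at −0.29 (adjusted p = 0.0814).

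Genes that set the fate of pyruvate moved in both directions. LDHA, the lactate dehydrogenase subunit typical of fast muscle, was listed under LOC113265126 and matched by the gene ID of RefSeq. It fell from 3349 to 5653 CPM in summer (median 4960.1) to 1253 to 2624 CPM in winter (median 1732), an FC of 0.365 (log2FC −1.45 ± 0.19, adjusted p = 0.000221). PDK4, a kinase that switches pyruvate dehydrogenase off, rose from 18.9 to 296 CPM in summer (median 90.1) to 504 to 749.8 CPM in winter (median 691). Its log2FC was 3.00 ± 0.52 (adjusted p = 0.00128), with bears from 1.34 to 5.06. PDK1, another kinase of the family, was also higher, at 66.3 to 94.9 CPM in summer and 95.004 to 129 CPM in winter, with 6 of 6 bears higher and a log2FC of 0.51 ± 0.09 (adjusted p = 0.00149). The related kinases PDK2 and PDK3 were lower, at −1.10 (adjusted p = 0.00012) and −0.85 (adjusted p = 0.00331).

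GLUD1, the mitochondrial glutamate dehydrogenase, was lower at −0.86 ± 0.13 (adjusted p = 0.000636). Of the 5 genes for lipoate and thiamine pyrophosphate, the cofactors of the 2-oxoacid dehydrogenases, 2 were lower and 1 was higher. Of 5 further mitochondrial carriers 1 was higher, SLC25A22, a glutamate carrier counted at 7.64 CPM at most. Respiratory complex I takes up the NADH of the cycle. Of 37 genes with NDUFA, NDUFB, NDUFC, NDUFS or NDUFV symbols, which mostly code for its subunits, 22 were lower. The median of their log2FC was −0.44. The difference between these lists and the 34 genes was not tested. Over all genes tested, 21.2% were lower and 19.6% higher, and the groups of 5 genes are too small to set beside those shares.

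**Figure D4:**
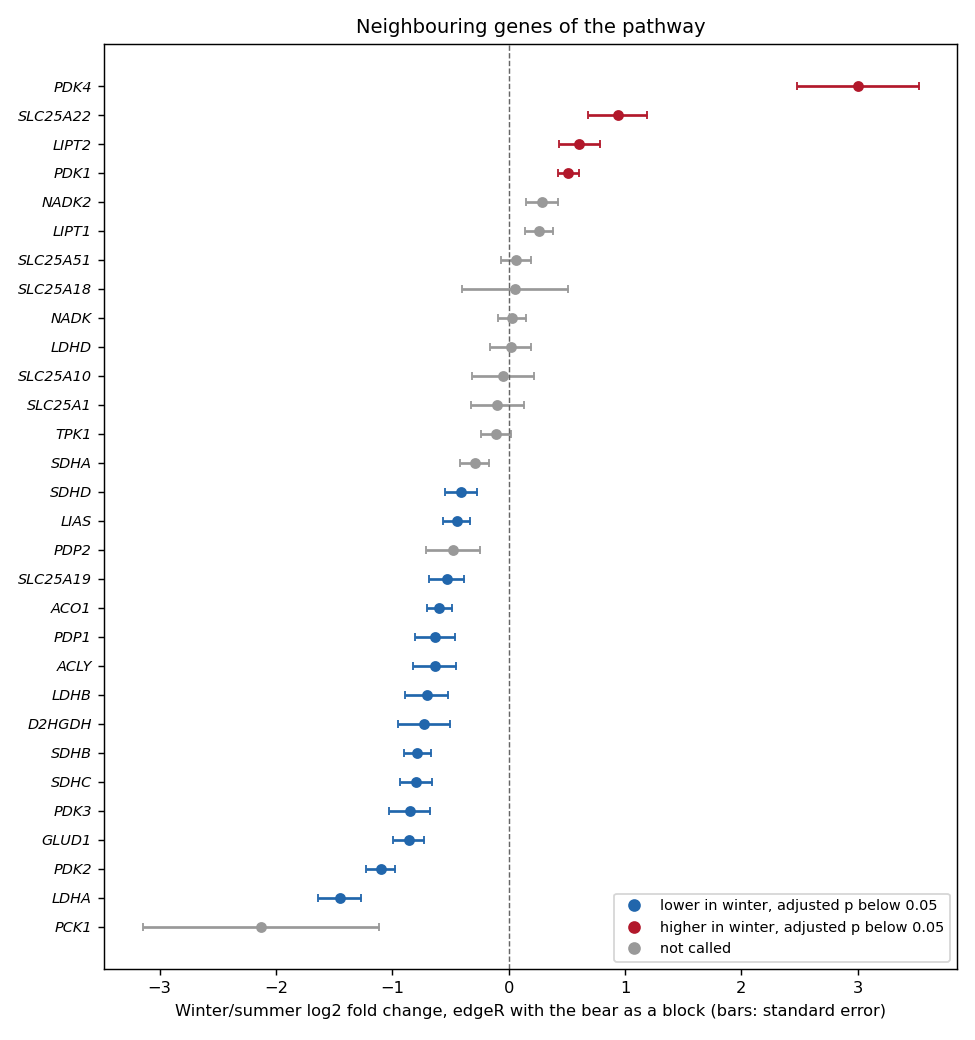
Winter/summer log2FC of 30 of the 32 neighbouring genes, fitted by edgeR with the bear as a block; bars are standard errors and colours give the call at an adjusted p below 0.05. PDK4 lies furthest to the right at 3.00, while LDHA and PDK2 are the largest falls called; PCK1, further left, was not called.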

How the data were processed

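Muscle RNA of 6 bears was sequenced in winter and summer (12 libraries). Per the methods and the submitters' processing notes, the authors aligned single reads of 50 bases with TopHat2 2.1.1 to ASM358476v1, discarded alignments with more than 3 mismatches and assigned the rest to genes by strand (featureCounts 1.6.2). The deposited values are these counts, neither normalized nor filtered. Genes under 30 reads held 0.0190% of all reads and were left out.

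Season was tested on TMM-scaled counts with edgeR 4.0.16 (R 4.3.3, glmQLFit and glmQLFTest) with the bear as a block, since the same animals were sampled. Deviations from season means correlated at 0.0903 to 0.344 within bears and at most at 0.142 between bears. CPM are TMM-scaled; log2 CPM have a prior count of 2. Alternatives were no block, DESeq2 1.42.0, limma voom (limma 3.58.1), RLE, library totals, other filters, stricter limits and each bear left out; leaving out 1 library was added after seeing the data. Calls came from 12 samples of 6 animals, at 16742406 to 32140160 reads per library. Counting error is larger for scarce genes such as PCK2, which had 13 to 51 reads per library.

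Described are all tested genes of the list; neighbouring genes are named if they passed the stricter limits (at most the 8 largest changes, of which 2 are not reported here), and SDHA, PDK1 and SLC25A22 were named after their values were seen. Members and lists were chosen with earlier results of these data known. Symbols missing from the table were looked up by RefSeq gene ID (UrsArc2.0). Gene lengths of the authors' build were not used here, so levels are not compared between genes.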

Additional observations from a re-analysis of the deposited data

Results flagged for a closer look

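In 8 of 68 sets of 6 libraries (34 genes in 2 seasons) the highest or lowest library lay further from its neighbour than Dixon's 95% limit allows, where chance flags about 1 in 20 sets. The winter library of bear 1511 was the highest of its season in 4 of them. It held IDH3G at 291 CPM against 143 to 183 CPM in the other winter libraries, SUCLG1 at 561 CPM against 369 to 413 CPM, MDH2 at 393 CPM against 212 to 255 CPM and SLC25A11 at 120.3 CPM against 43.4 to 54.2 CPM. The summer library of bear 1316 held IDH3G at 282 CPM against 155 to 184 CPM and PC at 162 CPM against 30.1 to 46.7 CPM. The summer library of bear 1512 was highest for DLD, at 809 CPM against 532 to 600.2 CPM, and lowest for PCK2, at 0.509 CPM against 1.42 to 2.24 CPM.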

How the results depend on the processing

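The counts of 24 genes lower and 1 higher were also found with no replicate block (24 and 1), in DESeq2 with and without it, in limma voom, with RLE, with library totals, with no filter and with filterByExpr; at the stricter limits they were 21 and 1. Removing the replicate block changed the call of none of the 34 genes. Leaving out a bear gave 24 lower in each case and 1 to 2 higher, the second being ME1 without bear 1316 and SLC25A13 without bear 1317 or 1509. The median of the list ran from −0.73 to −0.56 without a bear and was −0.75 with library totals, which moved the median of all genes to −0.08. Of 34 genes, 25 kept direction and call under all 15 alternatives at the limit of 0.05 (other fits, scalings, filters and libraries left out); the stricter limits, not among the 15, took the call from IDH3B, IDH2 and NNT. Genes that were not called and changed sign when a bear was left out were IDH3G (−0.21 to 0.054, above 0 without bear 1316), MPC2 (−0.15 to 0.10, above 0 without 1316, at 0.049, or 1509), GPD1L (−0.090 to 0.043) and PCK2 (−0.32 to 0.049), the latter pair above 0 without bear 1317. Without the winter library of bear 1509 and without the block, 25 were lower and 1 higher. Of the neighbouring genes, 10 were lower and 2 higher at the stricter limits, against 16 and 4, and 13 to 16 lower and 3 to 4 higher without a bear. With 0.5 added to counts the pair differences kept sign and side of 0.05. With 5 bears the smallest exact p is 0.0625, so leaving out a bear was read as a value: the 4 pairs at 0.03125 ran from −0.74 to −0.56 (MDH2 minus MDH1), 1.02 to 1.16 (GOT2 minus GOT1), 0.64 to 0.93 (GPD1L minus GPD1) and 0.47 to 0.77 (MPC2 minus MPC1). Depth limits PCK2 and OGDHL.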
